A study of Caenorhabditis elegans with 2 samples.

Results

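The genes of fatty acid synthesis, storage and breakdown in Caenorhabditis elegans were examined for recovery with GFP-tagged DAF-16 by an antibody against GFP. Members were the nuclear protein-coding genes of the WBcel235 annotation whose symbol begins with fat-, elo-, acs-, acdh-, lipl- or dgat-, together with fasn-1, pod-2, sbp-1, mdt-15, plin-1 and atgl-1. They numbered 66 of 19973 nuclear protein-coding genes. They comprised 7 desaturases, 9 elongases, 22 acyl-CoA synthetases, 13 acyl-CoA dehydrogenases, 8 lysosomal lipases, 1 diacylglycerol acyltransferase and the 6 genes named singly.

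DAF-16 binding was mapped by chromatin immunoprecipitation and sequencing in whole hermaphrodite L4 larvae, collected 54 hours after they were synchronized as starved L1 larvae. All animals were of strain ZM8745, in which the worm's own daf-16 carries the mu86 deletion, the insulin receptor gene daf-2 carries e1370, and the transgene hpSi15 supplies GFP-tagged daf-16a from the ges-1 promoter. That promoter drives expression in the intestine, and the labels differ on which end of the protein bears the tag. The 2 samples were biological replicates of this 1 group, so no condition could be set against another and no test was made. In chromatin of whole animals, binding in more cells and more binding per cell cannot be told apart.

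DAF-16 is the forkhead (FOXO) transcription factor that enters the nucleus when insulin-like signalling through DAF-2 is low, and daf-2 mutants are known to store more fat. The worm has no dedicated adipose tissue, and much of its triglyceride lies in lipid droplets of the intestine. Fatty acids are made by acetyl-CoA carboxylase and fatty acid synthase, lengthened by elongases, given double bonds by desaturases, joined to coenzyme A by acyl-CoA synthetases, stored as triglyceride, and released by lipases for beta-oxidation.

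The authors deposited 4 peak lists on the ce11 build, 1 for each replicate, 1 for both replicates pooled and 1 optimal list, thresholded by the irreproducible discovery rate. They hold 28175, 22676, 30000 and 1489 entries. The optimal entries were the 1489 highest-signal ones of the pooled list, and some of them ranked far apart in the replicates. An entry is an interval with a summit and a signal, and rank 1 is the highest signal of a list. The signal is the authors' value per peak on a scale that is not stated, so it orders entries within a list only. In the optimal list it ran down to 84.33, with a median of 118.9 and a highest nuclear value of 556.4. The lists hold no read counts, so the depth is unknown and no interval can be put on a signal. A gene was counted where a summit fell in the window around any of its transcript starts, reaching 2000 bp upstream and 500 bp downstream.

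An optimal summit lay in the window of 11 of the 66 members (16.7%), against 1132 of all protein-coding genes, or 5.67%. With a window of 1000 bp upstream in place of 2000 bp the counts were 4 members (6.061%) and 4.186% of all protein-coding genes, so that the ratio of the shares was 1.448 in place of 2.941, and it was 1.446 with 500 bp. The 11 genes were acs-6, atgl-1, dgat-2, elo-6, lipl-2, fat-3, fat-4, acs-4, fat-1, fat-2 and plin-1. They held 11 entries, because acs-6 had 2 of them and fat-3 and fat-4 shared 1. By role, entries stood at 4 of 7 desaturases, both lipid droplet genes and the 1 acyltransferase, at 2 of 22 synthetases, 1 of 9 elongases and 1 of 8 lipases, and at 0 of 13 dehydrogenases. At the 5.67% of all protein-coding genes, 0 of 13 does not stand apart. The signals of the 11 entries ran from 88.35 to 156.5. Over genes with an entry, the median signal of the highest one was 110.4 for members and 117.0 for all protein-coding genes, and the median rank was 885 for members and 775 for all protein-coding genes.

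Lower in the pooled list, within its highest 2978 entries, 2 times the number of optimal ones, 19 members had a summit (28.8%), against 11.3% of all protein-coding genes. At any rank 51 members had one (77.3%), against 54.8% of all protein-coding genes. At any rank it was also 94 of 103 other lipid genes (91.26%), 10 of 11 intestinal markers (90.91%), 6 of 8 markers each of muscle, neurons and germline (75.0%) and 5 of 10 hypodermal markers, so such a share is not particular to the members. Among genes with any entry, the best rank had a median of 4715 for members and 9200 for all protein-coding genes. Lists other than the optimal one include background by design, so an entry far down such a list is no sign of binding. At the end of the optimal list, the last member entry was that of plin-1 at rank 1371, with a signal of 88.35, and the next one in the pooled list belonged to atgl-1 at rank 1597, with 81.08.

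**Figure D1:**
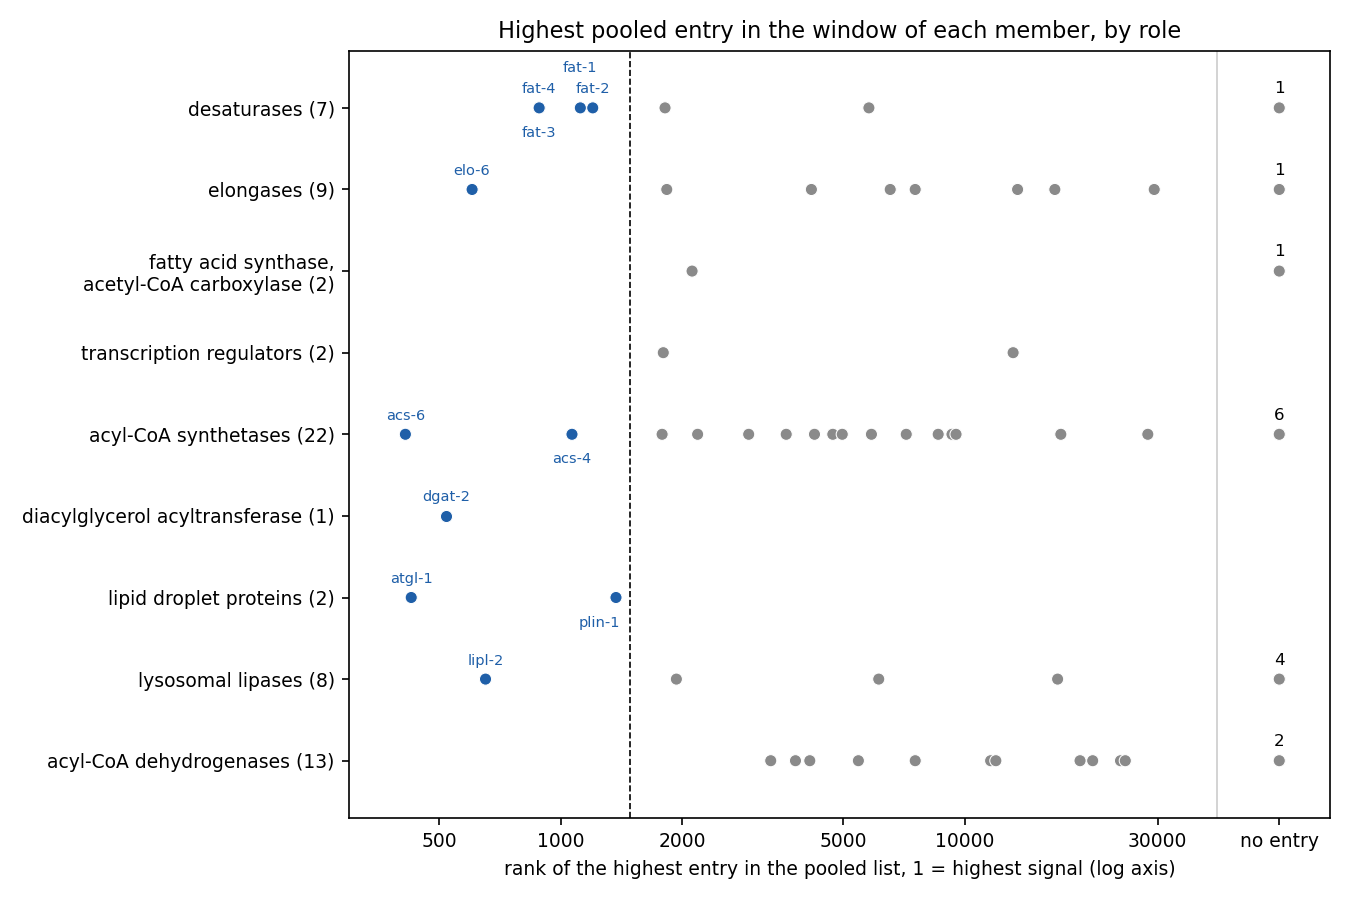
Rank of the highest pooled entry in the window of each of the 66 members (x axis, log scale), by role (rows, number of members in brackets). Points left of the dashed line, at rank 1489, are in the optimal list and named, points at the far right are members with no entry, counted above, and no acyl-CoA dehydrogenase lies left of the line.

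The desaturases put double bonds into fatty acids. In the worm, fat-5, fat-6 and fat-7 make monounsaturated fatty acids, and fat-2, fat-3, fat-4 and fat-1 act in the making of polyunsaturated ones. All 4 genes of the polyunsaturated branch had an optimal entry, and none of the 3 genes of the monounsaturated branch did. At the 5.67% of all protein-coding genes, none among 3 does not stand apart. With 1000 bp upstream, fat-1, fat-2 and fat-3 were no longer counted. With only the most upstream start of each gene, fat-4 was not. The genes fat-4 and fat-3 are neighbours on chromosome IV, read in the same direction and 796 bp apart, and 1 entry served both. It ran from 9801404 to 9801823, ranked 885 in the pooled list with a signal of 110.4, and ranked 1344 in replicate 1 with 52.43 and 585 in replicate 2 with 63.41. Its summit was in an intron of fat-4, 2185 bp downstream of the first start of that gene, 291 bp upstream of the last of its 3 starts and 1409 bp upstream of fat-3. The fat-4 count thus rests on an internal start, while the fat-3 count does not. The sequence 50 bp to each side of that summit is shown because it holds TGATAA, the core of the GATA-type element linked to DAF-16, in capitals. It was read from the RefSeq copy of the WBcel235 genome, which is ce11, on the plus strand from 5′ to 3′, as are all sequences here.
fat-3 and fat-4, chrIV:9801564-9801664: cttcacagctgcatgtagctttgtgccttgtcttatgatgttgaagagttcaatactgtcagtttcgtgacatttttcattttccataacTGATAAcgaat

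The genes fat-1, whose product makes omega-3 from omega-6 fatty acids, and fat-2, whose product makes linoleic acid, lie 5061 bp apart on the same chromosome and had an entry each. The fat-1 entry ran from 13314175 to 13314594, with its summit 1259 bp upstream of the start. It had a pooled signal of 99.21 at rank 1119, a replicate 1 signal of 41.2 at rank 2332 and a replicate 2 signal of 55.23 at rank 789. The fat-2 entry ran from 13322470 to 13322889, with its summit 1193 bp upstream of the first start, between the genes. Its pooled signal was 95.3 at rank 1201, its replicate 1 signal 40.7 at rank 2406 and its replicate 2 signal 51.63 at rank 932. Both entries were thus among the 1489 highest of replicate 2 and below that rank in replicate 1. None of the elements searched lay within 50 bp of either summit.

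**Figure D2:**
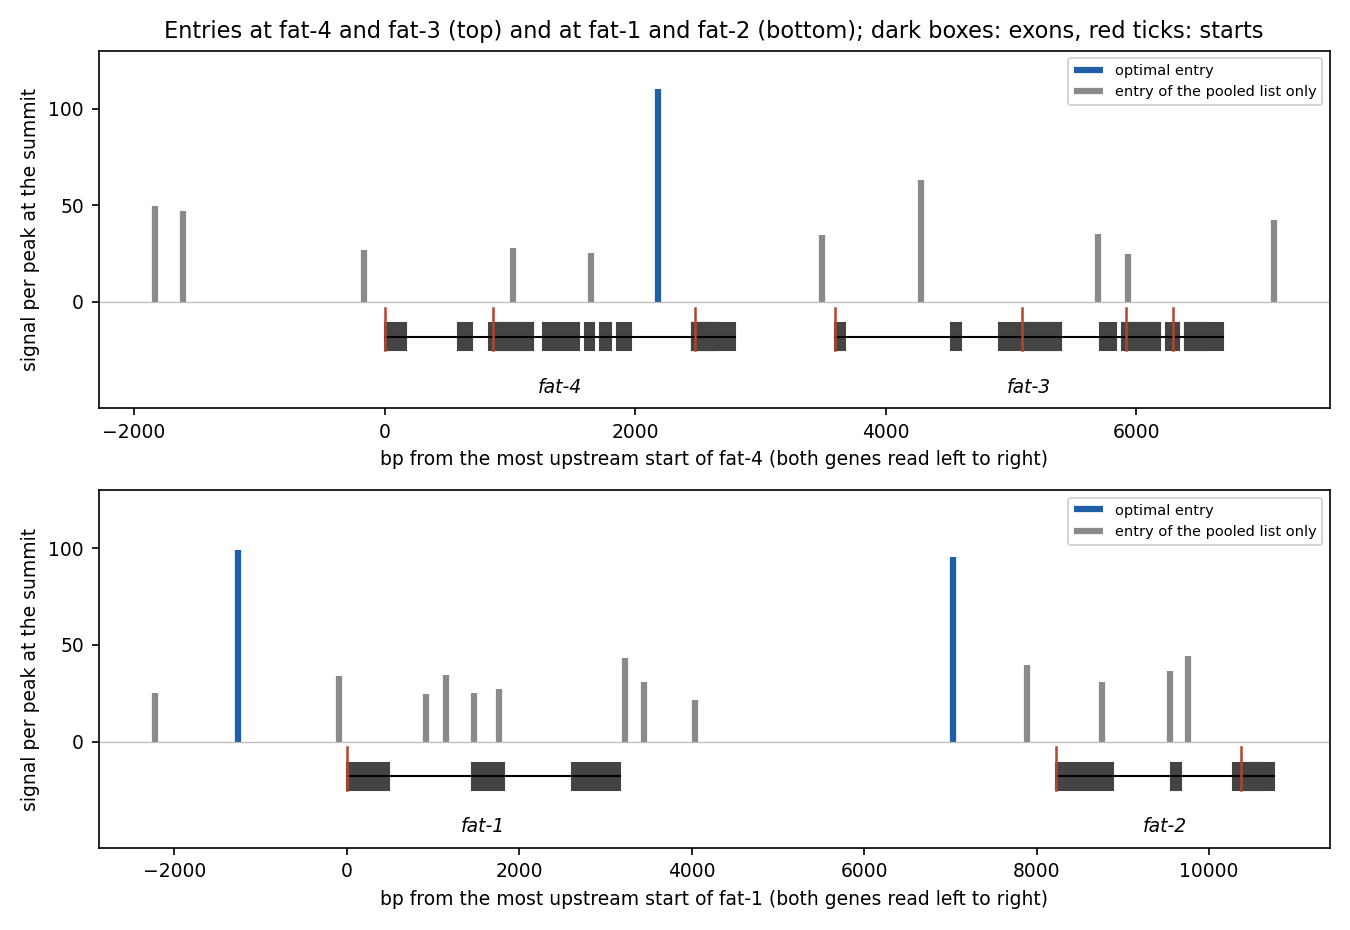
Signal per peak (y axis) of the entries at fat-4 and fat-3 (top) and at fat-1 and fat-2 (bottom), against distance in bp from the most upstream start of fat-4 or fat-1 (x axis). Blue lines are optimal entries, grey lines entries of the pooled list only, dark boxes exons and red ticks transcript starts; the entry shared by fat-4 and fat-3 stands at 2185 bp, inside fat-4.

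Among the monounsaturated branch, fat-6, a stearoyl-CoA desaturase gene, had no optimal entry but 3 entries within the highest 2978 of the pooled list. They ranked 1813, 1957 and 1992 with signals of 75.51, 72.91 and 72.26. The summit at rank 1813 was in an intron of fat-6, 237 bp upstream of an internal start. That at rank 1957 was in a coding exon of ZK822.10, 1507 bp upstream of the first start of fat-6. The summit at rank 1992 lay outside protein-coding genes, 553 bp upstream of that start. All 3 also lay in a window of ZK822.9 or ZK822.10, and the summit at rank 1957 was nearer to the start of ZK822.10, at 57 bp, and that at rank 1992 nearer to ZK822.9, at 293 bp. The fat-6 gene was the only member with 3 or more such entries (1.515%), against 39 of all protein-coding genes (0.195%). Its count of 3 rests on an internal start and on entries shared with neighbours. The palmitoyl-CoA desaturase gene fat-5 had its best entry at rank 5792, with a signal of 46.08, and fat-7, the other stearoyl-CoA desaturase gene, had none in any of the 4 lists. Besides the shared entry, fat-3 had an entry in its own intron at rank 2668, with a signal of 63.24.

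Elongases add carbons to fatty acids, and elo-5 and elo-6 are known for making the branched-chain fatty acids that the worm needs. Of the 9 elongase genes only elo-6 had an optimal entry, on chromosome IV from 5388712 to 5389131, 363 bp upstream of its start. It ranked 604 with a signal of 132.4 in the pooled list, 538 with 79.39 in replicate 1 and 724 with 57.31 in replicate 2. The ranks of the replicates were close, and both were within the highest 1489. The summit lay outside protein-coding genes and inside the annotated non-coding RNA gene F41H10.36. Next to it on the chromosome, elo-5 had its best entry at rank 4174, with 52.31. The elo-6 window is printed as the optimal entry with the highest signal among those that held none of the elements searched. That of elo-1, which acts in the making of long polyunsaturated fatty acids, is printed because it held TGTTTAC, the forkhead element, in capitals, 9 bp from its summit.
elo-6, chrIV:5388872-5388972: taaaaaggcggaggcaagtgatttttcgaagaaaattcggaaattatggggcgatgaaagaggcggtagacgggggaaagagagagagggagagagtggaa
elo-1, chrIV:9526229-9526329: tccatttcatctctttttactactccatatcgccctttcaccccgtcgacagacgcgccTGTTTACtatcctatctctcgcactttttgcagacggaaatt

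The elo-1 entry ranked 1831 in the pooled list with a signal of 75.17, 87 bp upstream of a start and inside 2 annotated non-coding RNA genes, and the overlapping replicate entries ranked 2472 and 5062. It also lay in the window of ndua-5. For elo-2, elo-3, elo-7, elo-9 and elo-4 the best pooled entries ranked 6540, 7540, 13512, 16707 and 29430, and elo-8 had none in any list. In replicate 1 the elo-3 entry ranked 1496, just below the number of optimal entries, and its highest replicate 2 entry ranked 7881.

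The 2 genes for the first steps of synthesis and the 2 for their control had no optimal entry. At the 5.67% of all protein-coding genes, absence from so few genes does not stand apart. In the pooled list pod-2, which encodes acetyl-CoA carboxylase, had its best entry at rank 2115, with a signal of 70.39 and its summit in an intron of the gene, 712 bp upstream of an internal start. The overlapping entries ranked 1762 in replicate 1 and 10095 in replicate 2. No list had an entry in the window of fasn-1, which encodes fatty acid synthase. Of the regulators, sbp-1, the worm's SREBP gene, had its best entry at rank 13172, with 33.16, and no entry in replicate 1. The Mediator subunit gene mdt-15, whose product acts with SBP-1, had one at rank 1795, with 76.04 and its summit 1978 bp upstream of a start, near the edge of the window. It overlapped entries at rank 1796 in replicate 1 and 2136 in replicate 2, and the windows of R12B2.6 and W04D12.1 held it too. In replicate 1 the overlapping summit fell outside the window, and the highest one inside ranked 9538. The mdt-15 sequence is shown because it holds TGATAAG, the whole DAF-16 associated element, here on the minus strand and so read as CTTATCA.
mdt-15, chrIII:5835679-5835779: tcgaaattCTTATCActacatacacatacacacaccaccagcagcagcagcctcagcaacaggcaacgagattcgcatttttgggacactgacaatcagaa

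Acyl-CoA synthetases join fatty acids to coenzyme A before storage or oxidation. Among the 22 of them acs-6 carried the strongest entry of all members. Its first entry, on chromosome II from 7060093 to 7060512, lay 1727 bp upstream of the start and ranked 413 in the pooled list with a signal of 156.5. It ranked 207 with 111.2 in replicate 1 and 866 with 53.13 in replicate 2. A second entry, from 7060304 to 7060723, overlapped the first and had its summit 1516 bp upstream of the start. This one ranked 1120 with a signal of 99.18, but its replicate ranks lay far apart, at 535 with 79.64 in replicate 1 and 7466 with 21.8 in replicate 2. The acs-4 entry, on chromosome III from 7165838 to 7166257, likewise differed between replicates. It lay 1790 bp upstream of the start and ranked 1067 with 101.1 in the pooled list, 594 with 75.61 in replicate 1 and 4846 with 25.55 in replicate 2. The first acs-6 window and the acs-4 window are shown for the capitals, TGATAAG on the plus strand in acs-6 and TGATAA on the minus strand, read as TTATCA, in acs-4. They begin 32 bp before and 24 bp after their summits.
acs-6, chrII:7060253-7060353: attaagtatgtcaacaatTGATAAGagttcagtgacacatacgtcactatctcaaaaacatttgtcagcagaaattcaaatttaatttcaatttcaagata
acs-4, chrIII:7165998-7166098: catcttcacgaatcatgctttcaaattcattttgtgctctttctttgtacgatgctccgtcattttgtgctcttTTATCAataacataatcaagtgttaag

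Of the other synthetases, acs-19, acs-5 and acs-1 had entries within the highest 2978 of the pooled list. The acs-19 entry ranked 1783 with 76.32 and was in the replicate 1 list at rank 1349 and in replicate 2 at 3534, and its summit was nearer to the start of brc-1, 215 bp away. The acs-5 entry ranked 2183 with 69.29, with 3776 and 3787 in the replicates, and TGATAAG began 25 bp from its summit. The acs-1 gene, which activates branched-chain fatty acids, had an entry at rank 2920 with 60.85, and at 3186 in replicate 1 and 9445 in replicate 2. Of the remaining 17, 6 had no pooled entry, and the others had best ranks from 3616 to 28374.

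Storage ends with dgat-2, whose product puts the last fatty acid onto triglyceride. Its 1 entry, on chromosome V from 17659218 to 17659637, lay 875 bp upstream of the start. It ranked 520 with a signal of 141.3 in the pooled list, 1257 with 53.95 in replicate 1 and 240 with 86.53 in replicate 2, the best replicate 2 rank of any optimal entry at a member. The summit was also 43 bp upstream of the start of fbxa-108, so the entry may be counted to either gene. The window is shown because it is the second optimal one with TGATAAG, here on the minus strand as CTTATCA, and it begins 27 bp after the summit.
dgat-2, chrV:17659378-17659478: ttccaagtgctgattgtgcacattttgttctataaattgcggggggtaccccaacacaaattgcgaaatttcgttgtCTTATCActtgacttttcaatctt

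Both genes of lipid droplet proteins had an optimal entry. The atgl-1 gene encodes the triglyceride lipase of droplets, and its entry on chromosome III, from 6421096 to 6421515, lay 1847 bp upstream of the start. The entry ranked 427 with a signal of 154.0 in the pooled list, 539 with 79.31 in replicate 1 and 345 with 77.42 in replicate 2, both well within the highest 1489. Its summit was in the 3′ UTR of the neighbouring gene C05D11.8, with TGATAA 21 bp away. A second atgl-1 entry, in an intron 357 bp downstream of a start, ranked 1597 with 81.08, and its replicate ranks were 5554 and 1080. The perilipin gene plin-1, for a protein that coats droplets, had the lowest of the 11 entries, from 7056557 to 7056976 on chromosome I and 425 bp upstream of a start. It ranked 1371 with 88.35 in the pooled list, 1540 with 49.64 in replicate 1 and 2682 with 31.97 in replicate 2. It was thus outside the highest 1489 of either replicate, and W01A8.2, whose start was nearer at 382 bp, and W01A8.8 shared it. TGTTTAC and TGATAA both lay within 50 bp of this summit.

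Genes of breakdown in lysosomes and by oxidation came next. Of the 8 genes for lysosomal lipases, lipl-2 had an optimal entry, on chromosome V from 9789922 to 9790341, which ranked 652 with a signal of 127.7 in the pooled list. It ranked 610 with 74.63 in replicate 1 and 709 with 57.8 in replicate 2. The summit was 1435 bp upstream of lipl-2 and only 425 bp upstream of ztf-7, with none of the elements searched within 50 bp. The lipl-5 gene had an entry at rank 1934 with 73.17, whose summit was in the 3′ UTR of ZK6.8. No pooled entry was found for 4 of the 8, and for 9021 of all 19973 protein-coding genes. The acyl-CoA dehydrogenases take the first step of beta-oxidation in mitochondria or act on related substrates. None of the 13 had a pooled entry within the highest 2978, against 11.3% of all protein-coding genes. At that share, none among 13 does not stand apart. Lower down 11 of the 13 had one, at best ranks from 3311 to 24959. At any rank 54.8% of all protein-coding genes had one.

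The replicates were then set side by side. Among the 1489 highest entries of replicate 1 a summit lay in the window of 9 members (13.6%), against 5.60% of all protein-coding genes. For replicate 2 this was 9 members as well (13.6%), against 5.69% of all protein-coding genes. The genes high in both replicates were 7 members (10.6%) and 3.82% of all protein-coding genes, and those with an entry of any rank in both were 38 members (57.6%) and 37.8% of all protein-coding genes. The 7 were acs-6, atgl-1, dgat-2, elo-6, fat-3, fat-4 and lipl-2. Of the 11 optimal entries at members, 6 were within the highest 1489 of both lists (54.55%), 2 of replicate 1 only, 2 of replicate 2 only and 1 of neither. Of all 888 optimal entries in a window of a protein-coding gene, 569 were high in both (64.08%). Both replicate lists were made with the same control file, per the deposited readme, so they are not fully independent.

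**Figure D3:**
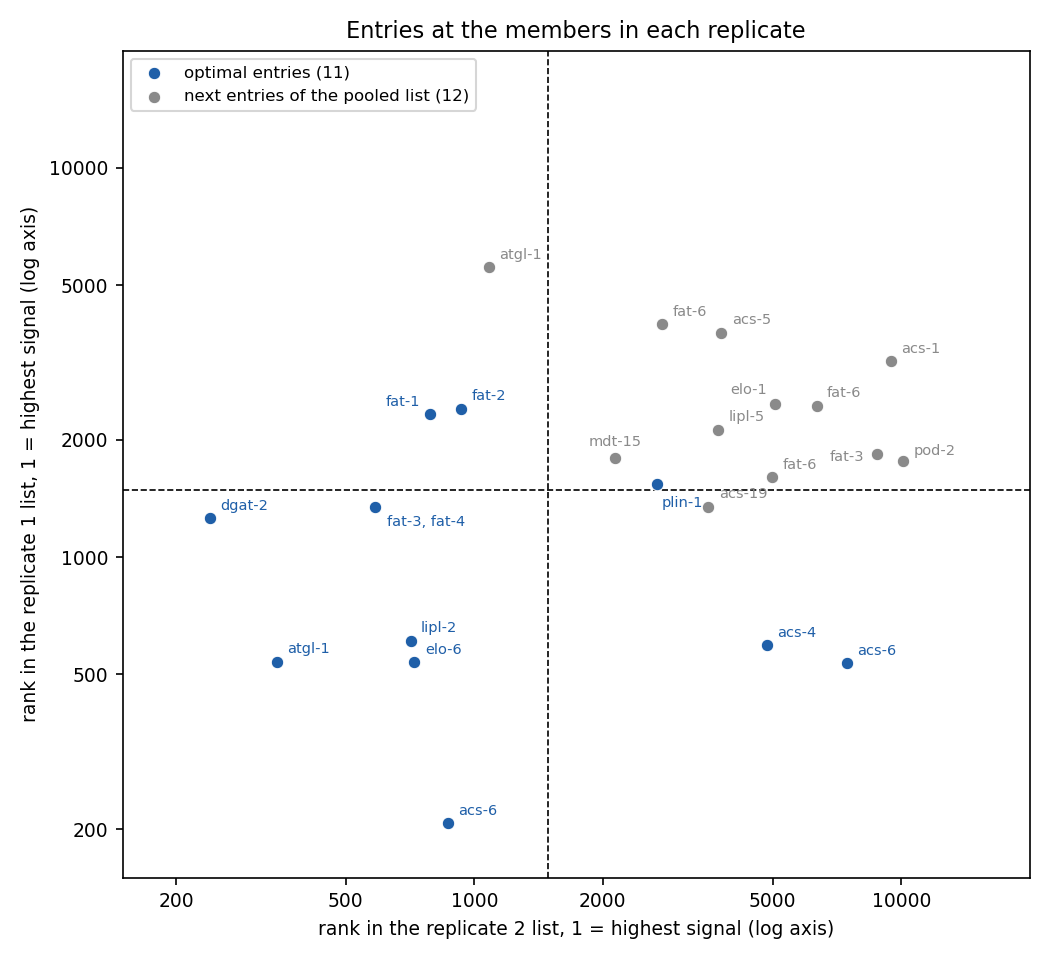
Rank of the entry in replicate 2 (x axis) against its rank in replicate 1 (y axis), both on log scales, for the 11 optimal entries at members (blue) and the 12 next entries of the pooled list (grey). Dashed lines mark rank 1489; 6 blue points lie inside both lines, fat-1 and fat-2 lie high in replicate 2 only, and acs-4 and the second acs-6 entry high in replicate 1 only.

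At most of the members counted, the entry lay far upstream of the member's own start. Taking the highest optimal entry of each gene, its summit was more than 1000 bp upstream of the nearest start of that gene for 7 of 11 members (63.64%), against 316 of 1132 genes overall (27.92%). The median distance was 1259 bp for members and 449 bp for all genes with an entry, and the members ran from 291 bp at fat-4 to 1847 bp at atgl-1. Of the 7 members beyond 1000 bp, lipl-2 had a summit nearer to a start of ztf-7, at 425 bp. The summit counted for fat-3 was nearer to a start of fat-4, at 291 bp. The stretch searched had a median of 2501 bp and 1 start in members and in all protein-coding genes. The share of members counted moved with the window, as given above for 1000 bp, and with 500 bp upstream it was 3 members (4.545%), against 3.144% of all protein-coding genes. The 4 genes within 1000 bp were plin-1, fat-4, elo-6 and dgat-2, and the shortest window lost dgat-2 as well. With 3000 bp it was 13 members (19.7%), against 7.105% of all protein-coding genes.

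**Figure D4:**
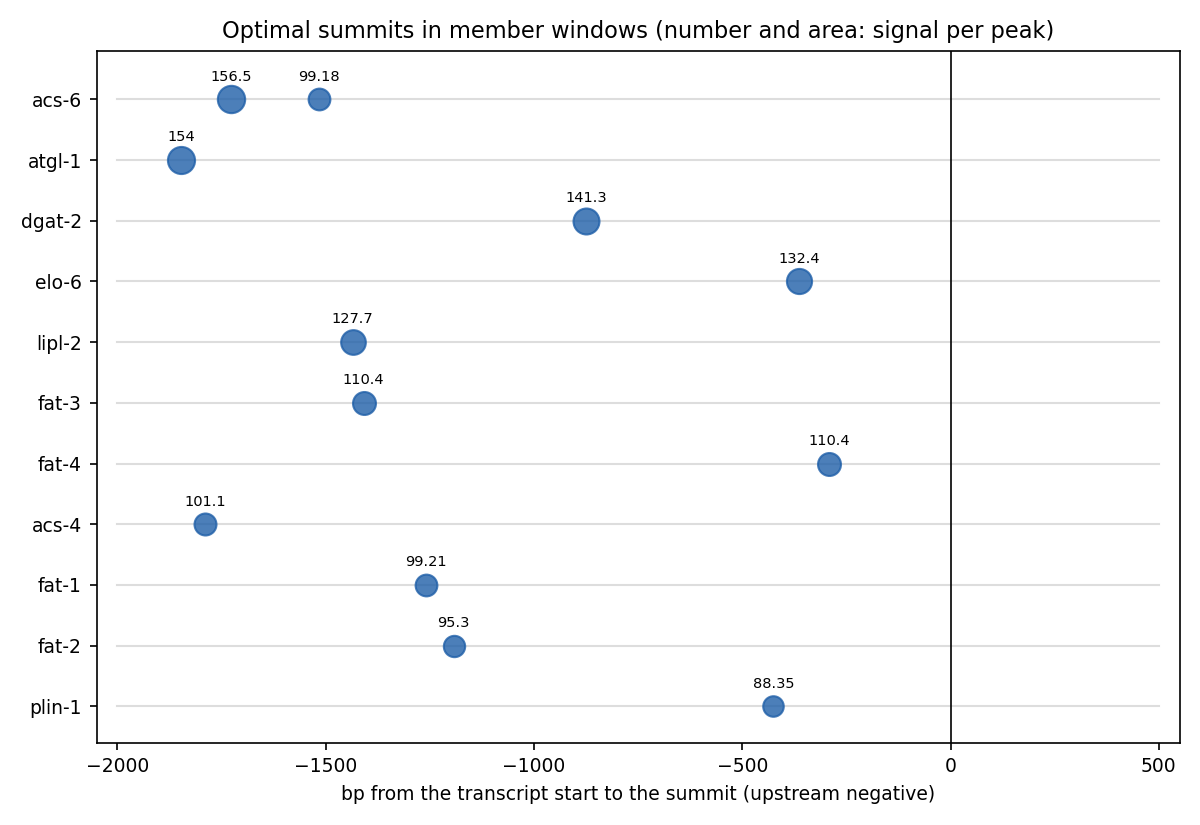
Distance in bp from a transcript start to the optimal summit in its window (x axis, upstream negative) for the 11 members with one (rows), with area and printed number giving the signal per peak. Of the 12 points, 1 entry counted for both fat-3 and fat-4, only those of elo-6, fat-4, plin-1 and dgat-2 lie within 1000 bp.

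**Figure D5:**
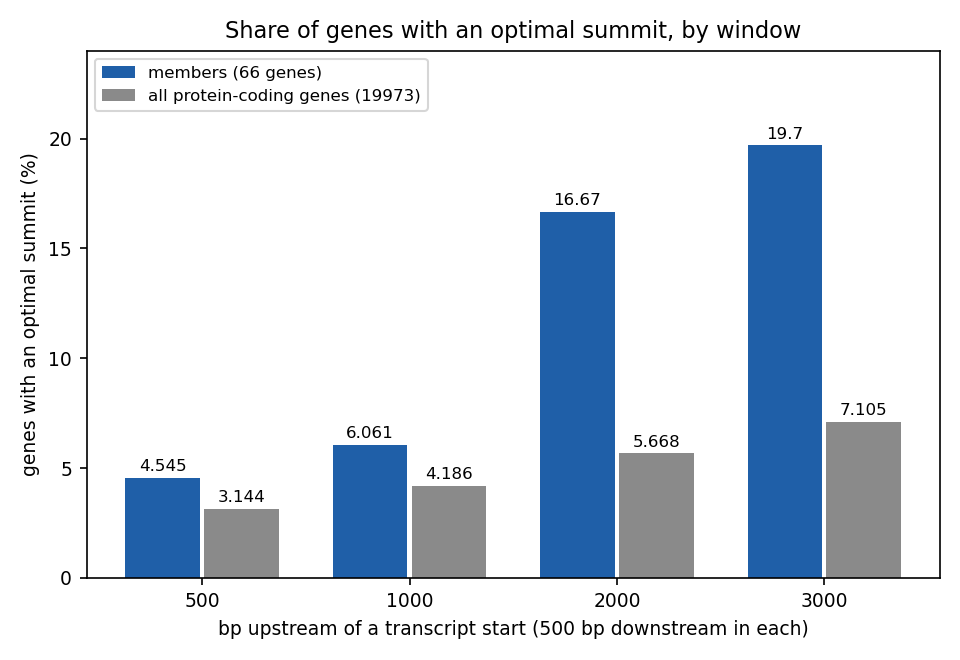
Share of genes with an optimal summit (y axis, %) for windows of 500 to 3000 bp upstream of a start (x axis), for the 66 members (blue) and all 19973 protein-coding genes (grey). The shares lie close at 500 and 1000 bp and apart at 2000 and 3000 bp, with 16.67% of members and 5.668% of all genes at 2000 bp.

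The sequence 50 bp to each side of the summits was searched on both strands for TGATAAG, for TGTTTAC or TATTTAC, the forms of the DAF-16 binding element TRTTTAC with R for G or A, and for TGATAA, which TGATAAG contains. TGATAAG was at 2 of the 11 optimal summits of members (18.18%), at acs-6 and dgat-2, against 129 of all 1464 nuclear optimal summits (8.811%). TRTTTAC was at 1 (9.091%), that of plin-1, against 78 (5.328%). TGATAA was at 6 (54.55%), those of acs-6, atgl-1, dgat-2, fat-3 and fat-4, acs-4 and plin-1, against 289 (19.74%). It began 32 bp before the acs-6 summit. At atgl-1, acs-4, dgat-2 and the summit of fat-3 and fat-4 it began 21, 24, 28 and 40 bp after the summit. The count of TGATAA was not repeated with a shorter motif window. TGATAA was added to the search later than the other elements. At the 28511 pooled summits below the optimal ranks TGATAA was at 11.04%. Base composition differed between these sets. The median GC content was 38.61% at members, 46.53% at all nuclear optimal summits and 35.64% at the lower pooled summits. Members and all nuclear optimal summits also differed in the share near transfer RNA and other small RNA genes, as given below. The part of either difference in the motif counts was not tested. The 12 next entries at members held TGATAAG, and with it TGATAA, at mdt-15 and acs-5 (16.67%) and TRTTTAC at elo-1 (8.333%). For TGATAA this share was below the 19.74% of all nuclear optimal summits. A match is a description of the letters, not a site shown to be bound.

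None of the 11 entries at members lay within 100 bp of a transfer RNA, small nucleolar RNA or small nuclear RNA gene, and the nearest such gene was 23651 bp away, at acs-4. Of all nuclear optimal summits 448 (30.6%) lay that near, and of the 888 in a window of a protein-coding gene 211 did (23.76%). With those summits left out, the members with an optimal summit stayed at 11, and the share of all protein-coding genes was 4.536%.

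A wider list of 103 lipid genes outside the families was counted in the same way. It held 7 genes with an optimal summit (6.796%), against 5.67% of all protein-coding genes, a share near the background. None of 11 genes of peroxisomal beta-oxidation and none of 13 genes of lipid binding or droplets had one. Among 24 genes of mitochondrial beta-oxidation and the carnitine shuttle, 2 did. The carnitine palmitoyltransferase gene cpt-2 had a signal of 91.45 and its summit 217 bp upstream, and ech-1.2, for a subunit of the mitochondrial trifunctional protein, had 146.6 at 1667 bp upstream, on the small nucleolar RNA gene T08B2.13. Among 16 regulators, the salt-inducible kinase gene kin-29 had 147.9 with its summit 137 bp upstream, and the adiponectin receptor homolog paqr-1 had 113.9 with its summit 26 bp from a transfer RNA gene. Among 32 genes of triglyceride and phospholipid synthesis, the glycerol-phosphate acyltransferase gene acl-6 had 97.48. Among 7 genes written down as other lipases, the fatty acid amide hydrolase gene faah-2 had 110.9. The other was pnp-1, with 85.69 and at ranks 1702 and 13366 of the replicates, but its name stands for purine nucleoside phosphorylase, which is no lipase.

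Marker genes of tissues were counted in the same way. Of 11 intestinal markers 3 had an optimal summit (27.27%), namely elt-2, act-5 and ifb-2, and 0 of 10 hypodermal, 8 muscle, 8 neuronal or 8 germline markers had one. Over all lists this was 3 of 45 markers (6.667%), near the 5.67% of all protein-coding genes, and at that share a list of 8 or 10 genes with 0 does not stand apart. The highest was that of elt-2, the main GATA factor of the intestine, with 173.2, above the signal of every entry at a member, and ifb-2 was the last optimal entry, with 84.33. The ifb-2 entry ranked 3471 in replicate 2, and both act-5 entries also lay in a window of shpk-1. Of the 3 intestinal markers, 2 were among the highest 1489 of both replicates.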

How the data were processed

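The samples were 2 biological replicates of 1 anti-GFP chromatin immunoprecipitation. Each deposited peak list was made by the authors from a replicate's alignments and 1 control file, per the deposited readme. Aligner, peak caller and discovery rate threshold: not given in the sources used here. Column 7 of each list is the authors' deposited signal per peak, on a scale that is not stated. The ce10 lists were not used, and a library without the tag or the antibody was not analysed here.

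Entries were assigned by summit to genes of Ensembl release 115 on WBcel235, which is ce11, with Python 3.11.15, numpy 2.4.6 and pandas 2.3.3. The 19973 genes have 29314 starts, any of which could take an entry, and neighbours could share one. A replicate's entry was matched to a pooled one by an overlap of at least 1 bp, taking the summit nearest to its middle. Motifs were searched in 101 bp windows of the RefSeq WBcel235 genome. The assignment was tested on simulated data.

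With 1 group, nothing was tested. Members are described beside all protein-coding genes. Members and lists were chosen with earlier results of these data known, and TGATAA was added later. Named were members with an optimal summit, all fat- and elo- genes, the 6 single genes, other members within the highest 2978 pooled entries, listed lipid and marker genes with an optimal summit, and genes that share one with a member. Alternatives changed the window, the assignment, the threshold, the replicate, the motif window and the small RNA genes. Neighbours and overlapping entries are not independent.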

Additional observations from a re-analysis of the deposited data

How the results depend on the processing

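The count of 11 members with an optimal summit and the 5.668% of all protein-coding genes moved most with the window and the number of entries. Members numbered 4 with 1000 bp upstream and 3 with 500 bp, where the shares of all genes were 4.186% and 3.144%. In the upper part of the optimal list, split at its middle by signal, 5 members and 2.729% of all genes were counted, and with 2978 pooled entries 19 members and 11.28%. With 3000 bp upstream there were 13 members and 7.105% of all genes, and with interval overlap 12 and 6.078%. Without small RNA summits there were 11 members and 4.536% of all genes. The nearest start gave 8 members, 7 of them among the 11, and 4.872% of all genes. It lost dgat-2, fat-3, lipl-2 and plin-1. Only the most upstream start of each gene, chosen after the data were seen, left 10, without fat-4, and 5.192% of all genes.

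Leaving out a replicate gave 9 and 9 members, and from 5.603% to 5.693% of all genes. Without replicate 1, acs-4 and plin-1 were lost. Without replicate 2, fat-1, fat-2 and plin-1 were lost and acs-19 was gained. TGATAAG stayed at 2 summits and TRTTTAC was at 0 in both. With 25 bp to each side, TGATAAG and TRTTTAC were each at 0 summits, and with 1000 bp upstream TGATAAG was at 1. TGATAAG began 32 bp from the acs-6 summit and 27 bp from that of dgat-2, outside the shorter motif window. TGATAA was not counted at these settings. At acs-6, atgl-1, dgat-2, fat-3 and fat-4, and acs-4 it did not lie whole inside the shorter motif window either. The 1 summit with TRTTTAC was that of plin-1, a gene lost without either replicate. With 1000 bp upstream acs-6 was lost, and with it 1 of the 2 TGATAAG summits. The cause of the changes in the members counted was not tested. No paired analysis was possible because there is 1 group and no test. The depth behind the lists is unknown.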
